A study of Mus musculus with 2 samples.

Results

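Stefins and cystatins are small proteins that block papain-like cysteine proteases, above all the cathepsins of the lysosome. They were examined here in RNA labelled as coming from primary keratinocytes, the main cells of the epidermis, of 2 mouse genotypes. The 6 genes were Stfa1, Stfa2 and Stfa3, which encode the stefin A proteins of the cytosol, Cstb, which encodes the cytosolic cystatin B, and Cst6 and Cst3, which encode the secreted cystatins M/E and C. They were chosen by their differences between these same arrays, known from earlier results, and found by matching the transcript accession of each array probe to the gene. Each of the 6 genes had 1 probe, so they gave 6 of 55678 probes and 6 of the 20144 genes named on the array.

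Stefin A and cystatin M/E are made in the upper layers of the epidermis, where stefin A becomes part of the cornified envelope, the cross-linked protein shell of the outermost cells. Cystatin M/E inhibits legumain and cathepsin L, and mice without it have a scaly skin with a failed barrier. Cystatin B and cystatin C are made by most cell types. In the mouse the stefin A genes form a cluster of near-identical copies, several of which are also known from neutrophils.

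The control sample carried the Rac3-KO genotype, and the other was labelled Rac1Rac3-DKO, so loss of Rac3 is common to both labels. Rac1 and Rac3 are small GTPases that act on the actin cytoskeleton. The labels describe both as P3 primary keratinocytes and do not spell out what P3 stands for. Strain, the way each gene was lost and the number of animals were not given in the sources used here. Each genotype has 1 array and no replicates, so the differences have no replicate check and genotypes were compared without a test. A probe is called detected where the software marks it as well above background. Levels are log2 processed signals minus the 75th percentile of the array. Differences are the DKO-labelled array minus the Rac3-KO array, and their error is the software's own signal error, which holds no variation between cultures or animals.

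Of all probes 56.9% were detected with Rac3-KO and 52.9% on the DKO-labelled array, and the 75th percentile of the signal was 705 and 354. The probes of the targeted genes did not bear out the labels: the Rac1 probes differed by 0.28 and -0.12, and the Rac3 probe was detected on both. A probe outside a deleted part checks nothing, and where these lie relative to it is not known here. Eif2s3y and Ddx3y, which lie on the Y chromosome, were detected only with Rac3-KO (signals 2498 and 984, against 4.33 and 4.64). A difference in sex between the samples thus cannot be told apart from the difference in genotype label. All 13 muscle markers and all 12 fibroblast markers examined were detected on both, with median differences of 2.60 (led by Actn3 at 3.14 and Ckm at 3.004, with Myh4 the lowest at -0.02) and 0.79 (led by Mfap5 at 1.57 and Col1a1 at 1.01). Of 14144 genes detected on both, the DKO-labelled array had 937 (6.62%) lower by 2-fold or more and 1091 (7.71%) higher by as much. Genes at least 2-fold higher were 53.8% of those at least 2-fold apart, and 43.6% with each array scaled to its median. Spike-in RNAs would place the median of all genes at -1.97 in place of -0.01, and every direction below is relative to the 75th percentile.

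The family divided into 3 genes that were lower on the DKO-labelled array and 3 that were not. Stfa3, Stfa1 and Cst6 were 13.0-fold, 6.56-fold and 3.53-fold lower, whereas Stfa2, Cstb and Cst3 differed by less than 2-fold. Over all genes the share at least 2-fold lower was 6.62%. The 6 genes were chosen with these differences known, so the count describes them and supports nothing. All 6 probes were detected on both, and no spot was saturated.

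Stfa3 had the lowest difference of the 6 genes. Its probe gave a processed signal of 141574 with Rac3-KO and 5472 on the DKO-labelled array. On the scaled log2 scale the levels were 7.65 and 3.95, a difference of -3.70 (signal error 0.20). Counted from the lowest difference it was number 8 of the 14144 genes. Stfa1 gave signals of 78208 and 5994 and log2 levels of 6.79 and 4.08, a difference of -2.71 (signal error 0.20). It was number 33 from the lowest. Both probes were bright on both arrays. Their differences were larger than the spread of repeated spots of other probes, whose SD had a median of 0.10 over 371 probes. That spread is technical only, and both genes were chosen with these differences known, so the comparison supports nothing.

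Stfa2, encoded in the same cluster, stood near the middle of all differences. Its signals were 2684 and 1347, and its log2 levels 1.93 on both arrays, a difference of -0.002 (signal error 0.20). The raw signal was lower on the DKO-labelled array, and so was that array's 75th percentile, by 0.99 on the log2 scale. Spike-in RNAs were instead brighter on that array by 0.97, and spike-in scaling would place Stfa2 at -1.97. Which scale holds for Stfa2 was not tested. Values of single stefin A copies are uncertain, since the probe sequences were not used here and a probe may also bind the RNA of a near-identical copy.

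**Figure D1:**
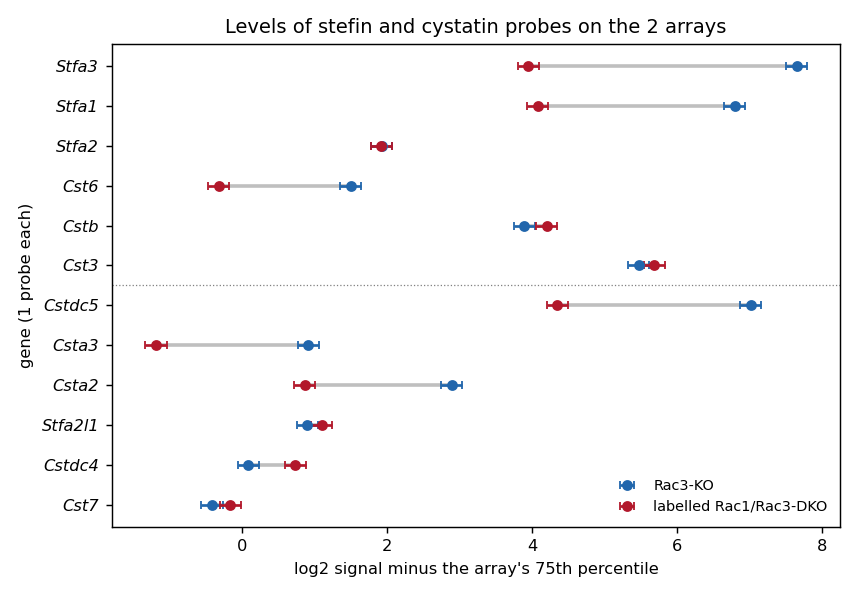
Log2 level of each stefin or cystatin probe detected on the Rac3-KO (blue) and DKO-labelled (red) array, relative to the array's 75th percentile; bars are the software's signal error and the 6 genes of the family as chosen lie above the dotted line. The points of Stfa3 lie at 7.65 and 3.95 and those of Stfa2 coincide at 1.93; levels of different probes are not comparable with each other.

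Cst6, the gene of cystatin M/E, had signals of 1996 and 284. Its log2 levels were 1.501 and -0.32, a difference of -1.82 (signal error 0.21). Of the 14144 genes 98.6% had a higher difference. The genes of the widely expressed inhibitors were close to equal on both arrays on this scale, whereas spike-in scaling would place Cstb at -1.65 and Cst3 at -1.75. Cstb had signals of 10493 and 6535 and log2 levels of 3.90 and 4.20, a difference of 0.31 (signal error 0.20). Cst3 had signals of 31222 and 18251 and log2 levels of 5.47 and 5.69, a difference of 0.22 (signal error 0.20). For Cst3 the difference is about the size of the error, and for Cstb 1.24-fold is well below the 2-fold used for counts.

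Further copies of the stefin A cluster also included lower genes and genes that were not lower. In gene order along chromosome 16, taken from the RefSeq annotation of GRCm38.p6 for order and names only, the 11 stefin A genes are Csta1, Stfa2l1, Cstdc4, Csta3, Csta2, Stfa1, Cstdc3, Cstdc6, Cstdc5, Stfa2 and Stfa3. Of these 10 had a probe and 8 were detected on both. Among the 8, which include the 3 Stfa genes above, 5 were lower by 2-fold or more and 0 higher by as much, beside 6.62% lower and 7.71% higher over all genes. The 3 Stfa genes were chosen on these values, so nothing is read from the count. The other 3 lay between -0.002 and 0.65, and the highest of the 5 lower ones was -2.02. Both groups were divided on these same values, so the gap of 2.02 between them is a description only.

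The difference of Cstdc5 was close to that of Stfa1. Cstdc5 had signals of 91249 and 7207 and a difference of -2.67 (signal error 0.20), or 6.37-fold lower. Csta3 had signals of 1332 and 156, and a difference of -2.10 (signal error 0.21). Csta2 was spotted 10 times and so gives a view of the technical spread. Its mean signals were 5268 and 649, and its difference was -2.02. Over the 9 spots that passed the outlier filter on both arrays the single-spot differences ran from -2.24 to -1.78 with an SD of 0.13. None of its spots came near the differences of the copies that were not lower, but the copies were divided on these same values.

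Stfa2l1 and Cstdc4 were, besides Stfa2, the copies that were not lower. Stfa2l1 had signals of 1320 and 762, and a difference of 0.20 (signal error 0.20). Cstdc4 had signals of 750 and 591, and a difference of 0.65 (signal error 0.20), or 1.57-fold higher. Csta1 and Cstdc6 were detected only with Rac3-KO, as were 4.26% of all named genes. Cstdc6, with signals of 53.1 and 4.32, was lower on the DKO-labelled array by at least 1.33-fold, a bound set by the lowest level called detected there. For Csta1, at 34.1 and 16.3, no fold can be given. Cstdc3 had no probe.

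Csta3, Csta2, Stfa1 and Cstdc5, with the dim Cstdc6 and the unmeasured Cstdc3, are neighbours in the middle of the cluster, and Stfa3 lies beyond Stfa2 at its end. The nearest measured genes outside the cluster were mixed. On the side of Csta1, Ccdc58, Fam162a and Wdr5b differed by -0.57, -1.53 and -0.27. On the side of Stfa3, Cd86, Slc15a2 and Eaf2 differed by 1.06, -1.13 and -0.09.

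**Figure D2:**
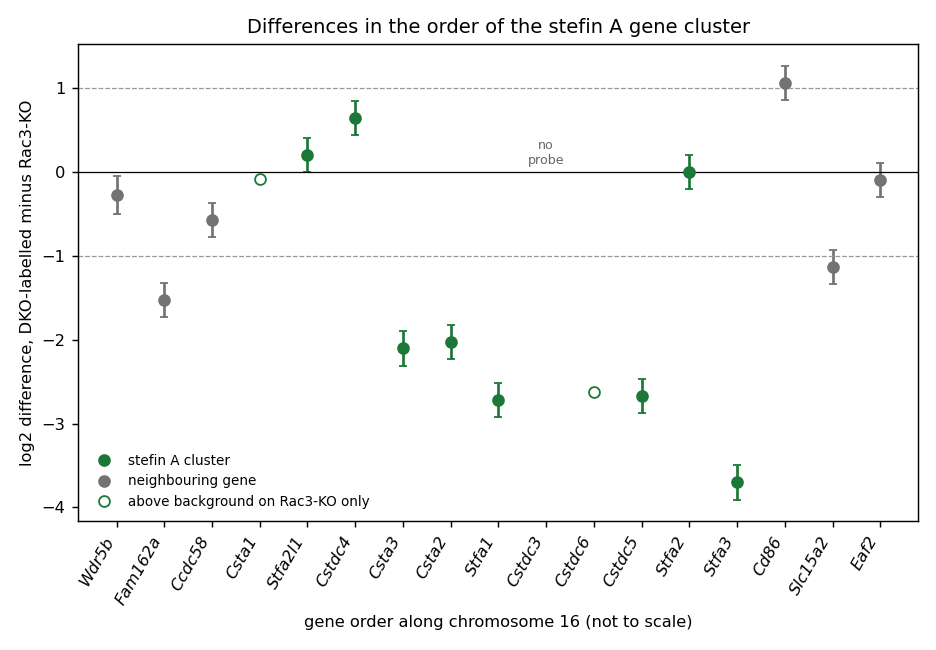
Log2 difference (DKO-labelled minus Rac3-KO) of the stefin A genes (green) and the 3 nearest measured genes on each side (grey), in gene order along chromosome 16; bars are the software's signal error, open circles, drawn without bars, were detected only with Rac3-KO and are not measured differences, and dashed lines mark 2-fold. The 5 lower stefin genes lie at -2.02 or below, while Stfa2, between Cstdc5 and Stfa3, lies at 0.

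The promoters of the copies were compared next. Windows from 250 bases before to 50 after the annotated start were taken from RefSeq on GRCm38.p6, which matched Stfa1, Stfa2, Stfa3 and Cst3 but not Cst6 and Cstb. The windows of all 8 copies detected on both arrays are shown, so that the 5 that were lower (Stfa3, Stfa1, Cstdc5, Csta3 and Csta2) can be set beside the 3 that were not (Stfa2, Stfa2l1 and Cstdc4). Capitals mark a run of 13 letters common to all but Csta2, and each AGATAA on the strand shown. Csta2 holds neither and has no capitals.
Stfa3, chr16:36455343-36455642, minus strand: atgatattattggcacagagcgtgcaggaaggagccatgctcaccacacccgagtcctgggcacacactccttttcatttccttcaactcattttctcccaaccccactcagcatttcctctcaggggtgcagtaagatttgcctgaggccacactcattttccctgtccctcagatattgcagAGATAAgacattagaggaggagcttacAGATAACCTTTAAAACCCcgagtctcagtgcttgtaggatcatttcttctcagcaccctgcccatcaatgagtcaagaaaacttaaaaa
Stfa1, chr16:36276898-36277197, plus strand: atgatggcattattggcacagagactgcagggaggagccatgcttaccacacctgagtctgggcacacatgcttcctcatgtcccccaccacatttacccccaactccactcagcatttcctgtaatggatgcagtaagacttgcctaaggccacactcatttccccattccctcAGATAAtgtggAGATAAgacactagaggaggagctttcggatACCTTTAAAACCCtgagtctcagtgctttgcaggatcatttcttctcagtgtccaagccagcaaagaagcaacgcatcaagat
Cstdc5, chr16:36367521-36367820, minus strand: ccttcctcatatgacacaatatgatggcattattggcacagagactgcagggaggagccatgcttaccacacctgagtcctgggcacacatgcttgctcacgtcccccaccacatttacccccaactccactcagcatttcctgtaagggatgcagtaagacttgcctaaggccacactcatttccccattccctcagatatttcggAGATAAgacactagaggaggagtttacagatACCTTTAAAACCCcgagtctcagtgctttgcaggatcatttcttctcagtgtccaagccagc
Csta3, chr16:36210153-36210452, plus strand: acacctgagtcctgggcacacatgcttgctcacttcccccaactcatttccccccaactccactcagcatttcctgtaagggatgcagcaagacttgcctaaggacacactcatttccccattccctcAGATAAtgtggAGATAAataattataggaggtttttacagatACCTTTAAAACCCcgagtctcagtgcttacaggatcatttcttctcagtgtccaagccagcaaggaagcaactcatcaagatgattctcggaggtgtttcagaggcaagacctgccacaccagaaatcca
Csta2, chr16:36221312-36221611, plus strand: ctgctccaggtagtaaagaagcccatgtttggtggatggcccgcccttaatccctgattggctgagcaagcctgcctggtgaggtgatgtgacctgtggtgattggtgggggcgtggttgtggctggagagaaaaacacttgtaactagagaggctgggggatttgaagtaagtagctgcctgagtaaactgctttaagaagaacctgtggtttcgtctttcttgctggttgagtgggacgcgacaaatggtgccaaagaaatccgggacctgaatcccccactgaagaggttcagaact
Stfa2, chr16:36408314-36408613, minus strand: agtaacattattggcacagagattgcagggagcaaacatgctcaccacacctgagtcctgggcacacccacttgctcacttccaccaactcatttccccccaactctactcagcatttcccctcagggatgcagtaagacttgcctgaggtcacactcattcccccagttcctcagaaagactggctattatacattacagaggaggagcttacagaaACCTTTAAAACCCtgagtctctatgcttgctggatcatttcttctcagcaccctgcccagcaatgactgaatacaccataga
Stfa2l1, chr16:36156561-36156860, plus strand: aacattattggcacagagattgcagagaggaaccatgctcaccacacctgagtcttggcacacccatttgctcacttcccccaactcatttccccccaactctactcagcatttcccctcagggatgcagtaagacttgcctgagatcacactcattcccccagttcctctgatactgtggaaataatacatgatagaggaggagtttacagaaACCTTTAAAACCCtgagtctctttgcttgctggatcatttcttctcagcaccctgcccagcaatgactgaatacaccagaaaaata
Cstdc4, chr16:36183962-36184261, plus strand: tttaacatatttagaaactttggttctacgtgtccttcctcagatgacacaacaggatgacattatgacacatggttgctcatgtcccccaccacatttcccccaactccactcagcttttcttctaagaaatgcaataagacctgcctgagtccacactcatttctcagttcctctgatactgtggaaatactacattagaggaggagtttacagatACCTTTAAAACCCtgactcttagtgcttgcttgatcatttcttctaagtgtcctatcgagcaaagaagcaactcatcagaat

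Promoter likeness and the differences are given side by side. Here and below each difference is taken as that of the named copy, although a probe may also bind the RNA of another. Stfa2 and Stfa2l1 had the most similar pair of windows, with 90.5% identical alignment columns, and neither was lower. Stfa1 and Cstdc5 followed with 83.8%, and both were lower by almost the same amount. Yet Stfa3 was as similar to Stfa2 (80.9%) and Stfa2l1 (81.0%) as to Stfa1 (80.6%), although its difference was the lowest of all and theirs were -0.002 and 0.20. Over the 21 pairs among 7 copies (all those shown except Csta2) identity ran from 58.0% to 90.5%. Csta2, which was lower, had a window of another kind, with at most 46.6% identity to any of the 7.

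**Figure D3:**
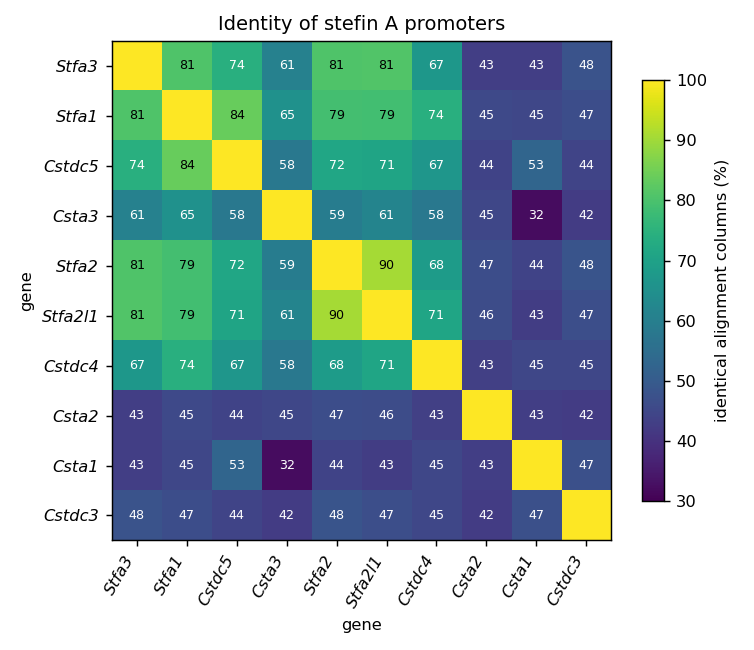
Percent of identical columns in pairwise global alignments of the 300-base promoter windows of 10 stefin A genes (the first window where a gene has several). Stfa2 and Stfa2l1 share 90.5%, Stfa1 and Cstdc5 share 83.8%, and Csta2, Csta1 and Cstdc3 stand apart from the block of 7.

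The run ACCTTTAAAACCC was the longest common to all 7 copies. Searched on both strands, it was found in 9 of 32851 promoter windows of the table, and all 9 belong to genes inside the stefin A cluster, including a further window of Cstdc3 and the predicted gene Gm7260. It holds the letters TTTAAA, which occur in 13.2% of all windows. The run begins 34 bases before the annotated start of Stfa3 and 33 before that of Stfa1. Over the 7 copies this distance ran from 12 (Cstdc5) to 80 (Csta3). The run is held by lower copies and by copies that were not lower, and Csta2, which was lower, lacks it.

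AGATAA, letters known from the sites of GATA factors, was found in the windows of the 4 lower copies of the 7 (Stfa3, Stfa1, Cstdc5 and Csta3) and in none of Stfa2, Stfa2l1 and Cstdc4. It was chosen after the values and the sequences had been seen. It is 1 of 12 strings of 6 letters with that division, and 5 strings had the opposite one. In Stfa3 the second AGATAA shares its last letter with the 13-letter run. AGATAA occurs on either strand in 11.2% of all windows, and Csta2, which was lower too, lacks it. TGANTCA, the AP-1 motif, was present in Stfa3 alone of the 7 copies and in 7.81% of all windows. Its match in Stfa3 lies in the 50 bases after the annotated start and not before it. GGGCGG, the GC box, was absent from the 7 copies and is held by 35.7% of all windows. On either strand it was found 1 time in the window of Csta2 and 2 times in that of Cst3. These matches describe letters and not binding.

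Set against keratins measured on the same arrays, the lower genes did not all differ by the same amount. Krt14 and Krt5, the keratins of the basal layer, differed by -1.92 and -1.20, and Krt1 and Krt10, those of the suprabasal layers, by -4.95 and -4.50. Krt1 was the lowest of all genes detected on both, and Krt1 and Krt10 do not stand for suprabasal genes at large. In the suprabasal list described below, the next lowest gene was Klk5 at -2.78, and the list median of -1.66 was above Stfa3, Stfa1 and Cst6. Stfa3 was 3.43-fold lower relative to Krt14 and 5.65-fold lower relative to Krt5, but 2.38-fold higher relative to Krt1. Stfa1 was 1.73-fold lower relative to Krt14 and 2.85-fold lower relative to Krt5, but 4.73-fold and 3.45-fold higher relative to Krt1 and Krt10. Cst6 differed from Krt14 by 0.10 on the log2 scale, and its difference has a signal error of 0.21. Cst6 was 1.53-fold lower relative to Krt5, but 8.78-fold and 6.41-fold higher relative to Krt1 and Krt10. Stfa2, Cstb and Cst3 were all at least 3.78-fold higher relative to Krt14.

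The stefin A differences stood beside shifts of whole cell type marker lists. Among the 12 genes of the basal keratinocyte list 9 were lower by 2-fold or more and 0 higher, and the median was -1.499. Krt15 was the lowest at -2.31, followed by Krt14, and Dst was the highest at 0.11. The summed level of this list was 686 and 252, and 375 and 116 without Krt5, its brightest gene. Of 18 suprabasal genes detected on both 17 were lower by 2-fold or more and 0 higher (median -1.66), and only Tgm3, a transglutaminase of the cornified envelope, was above 0, at 0.72. The summed level of the suprabasal list, in multiples of the array's 75th percentile, was 405 with Rac3-KO and 55.8 on the other array. Without Krt10, its brightest gene, the sum was 238 and 48.4. Ivl and Krt77 were detected only with Rac3-KO. The part of these shifts in the lower stefins was not tested. In such bulk RNA fewer keratinocytes and less RNA per keratinocyte cannot be told apart.

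Neutrophil markers lay on both sides of 0. Of 12 genes detected on both 0 were lower by 2-fold or more and 1 higher by as much (median 0.26, against -0.01 for all genes), and the summed level was 117 and 134. Csf3r, a cytokine receptor gene with a difference of 0.17, made up most of it, and the sum of the others was 15.7 and 20.6. On spike-ins the neutrophil median was -1.71. Lcn2, an iron-binding protein that keratinocytes also make, was the highest at 1.59, followed by Elane, a granule protease, at 0.88. Padi4 and Camp, a histone-modifying enzyme and an antimicrobial peptide, were the lowest at -0.94 and -0.71. Cxcr2, Mmp9, Prtn3 and Cd177 were not detected on either array, and Mpo was detected only with Rac3-KO, with signals of 65.6 and 15.1. Macrophage markers were higher: 7 of 14 were higher by 2-fold or more and 0 lower (median 1.08), led by Cd163 at 2.19 and Csf1r at 1.45, although on spike-ins the median was -0.89. Their summed level was 70.4 and 166. Cst3, which macrophages make in quantity, was higher by 0.22 beside them, and their part in its level was not tested.

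**Figure D4:**
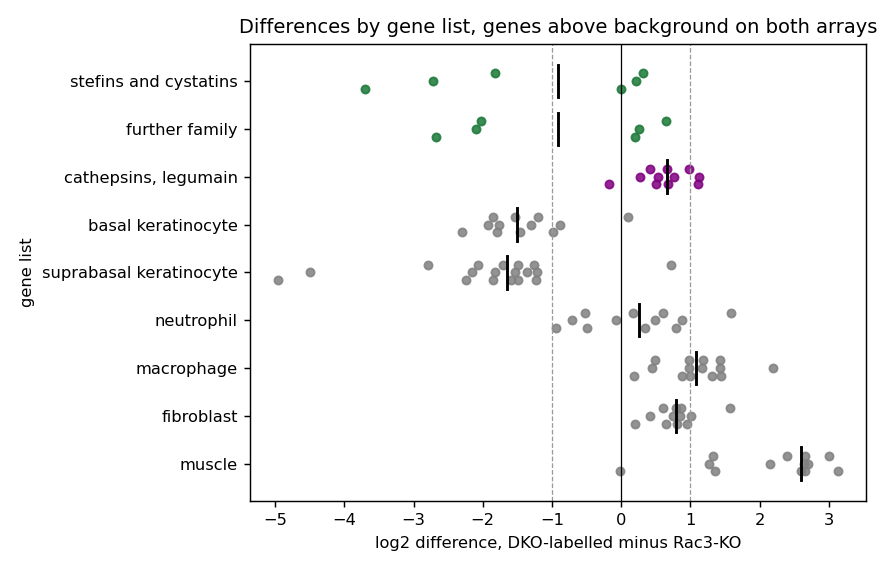
Log2 difference (DKO-labelled minus Rac3-KO) of each gene detected on both, by gene list; black bars are list medians and dashed lines mark 2-fold. In the stefins and cystatins and in their further family 3 genes each lie below the lower 2-fold line and the others between the lines, while 10 of the 11 cathepsin and legumain genes lie above 0 on this scale and all 11 below 0 on spike-ins.

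On the reported scale none of the listed protease genes, which encode targets or relatives of targets of these inhibitors, was at least 2-fold lower. All 11 genes of the cysteine cathepsin and legumain list were detected on both, 2 were at least 2-fold higher (7.71% of all genes were) and 0 at least 2-fold lower. The median difference was 0.66, against -0.01 for all genes. Lgmn, encoding legumain, which cystatin M/E and cystatin C inhibit, had signals of 16341 and 17852 and differed by 1.12 (signal error 0.20). Ctss, encoding cathepsin S of antigen-presenting cells, had signals of 3952 and 4274 and differed by 1.11 (signal error 0.20). Both genes are also known from macrophages, whose markers had a median of 1.08. The part of macrophages in these differences was not tested.

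The cathepsins with the widest expression were higher by less than 2-fold. Ctsl and Ctsb, the main lysosomal endopeptidases bound by stefins, differed by 0.67 and 0.66, with signals of 44590 and 35679 for Ctsl and of 28627 and 22766 for Ctsb. Ctsh, an aminopeptidase, differed by 0.50 and Ctsz by 0.53. Ctsk, a collagen-degrading cathepsin, differed by 0.77 beside fibroblast markers with a median of 0.79. The part of fibroblasts in the Ctsk difference was not tested. Ctsf differed by 0.41, the dim Ctso by 0.99 with a signal error of 0.28, and Ctsw, known from lymphocytes, by 0.28. Ctsc, the activator of granule proteases, was the only gene of the list below 0, at -0.18, which is within its signal error of 0.20. On the reported scale 10 of the 11 protease genes were above 0, as were 6994 of the 14144 genes detected on both. Of the 6 inhibitor genes, chosen with their differences known, Stfa3, Stfa1 and Cst6 were well below 0. Cstb and Cst3 were above 0, at 0.31 and 0.22, and Stfa2 was at -0.002. On spike-ins all 11 protease genes were below 0 and 8 of them at least 2-fold lower, with Lgmn at -0.84 and Ctss at -0.86.

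Other cystatins of the family were mostly dim. Outside the stefin A cluster, Cst7, encoding cystatin F of leukocytes, was the only further gene detected on both, with signals of 531 and 318 and a difference of 0.25 (signal error 0.21). Cst8, Cst9, Cst10, Cst11, Cst12, Cst13, Cstl1 and Cstdc2, several of them known from the male reproductive tract, and the kininogen genes Kng1 and Kng2 were not detected on either array. Fetub was detected only with Rac3-KO, with signals of 43.0 and 18.9. Its scaled difference of -0.19 has a signal error of 0.46 and is not read as a lower level. Ahsg and Cstdc1 were detected only on the DKO-labelled array, as were 1.14% of all named genes. Their signals were 23.9 on both arrays for Ahsg, and 26.6 with Rac3-KO and 22.5 on the DKO-labelled array for Cstdc1. These lie near the lowest signals called detected (23.4 and 20.1). The scaled differences of 0.99 (signal error 0.51) and 0.75 (signal error 0.46) are thus not read as higher levels. Across the 21 further family genes with a probe, 6 were measured on both arrays, of which 3 were lower by 2-fold or more and 0 higher (median -0.91), beside 6.62% lower and 7.71% higher over all genes (median -0.01). All 3 belong to the stefin A cluster.

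The 6 differences depended little on the processing except for the choice of spike-ins. Over 7 alternatives of background correction, scaling, spot filter and value source, Stfa3 ran from -3.85 to -3.70, Stfa1 from -2.90 to -2.71, Cst6 from -1.92 to -1.76 and Stfa2 from -0.10 to 0.02. Cstb ran from 0.21 to 0.31 and Cst3 from 0.09 to 0.22. With arrays set equal on spike-ins all 6 were at least 2-fold lower, from -5.66 for Stfa3 to -1.65 for Cstb, since this moves every gene by the same amount. The distances between the genes do not change with such a shift.

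**Figure D5:**
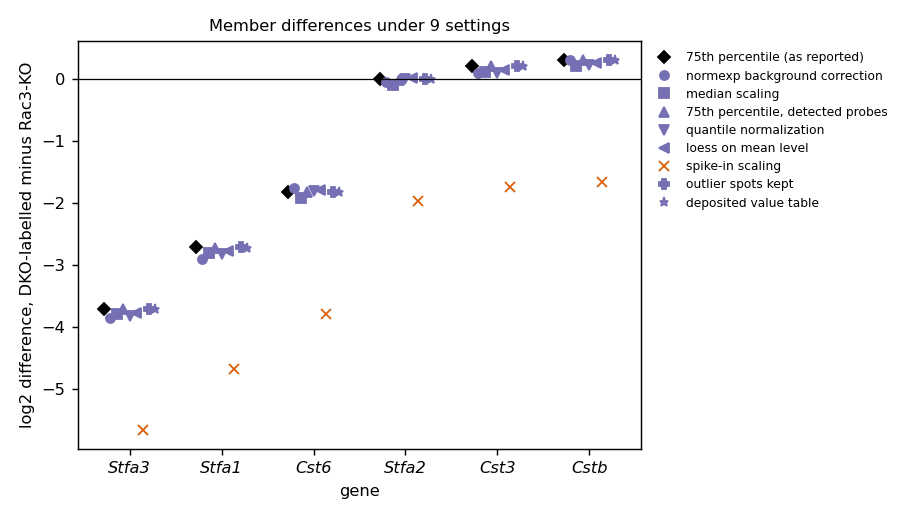
Log2 difference (DKO-labelled minus Rac3-KO) of the 6 genes as reported (black), under 7 alternatives (purple) and with spike-in scaling (orange crosses). Purple and black points of a gene nearly coincide; spike-in scaling lowers all 6 by the same amount.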

How the data were processed

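Labelled cRNA of 1 sample per genotype was hybridised to 1-colour (Cy3) Agilent arrays. Per the file headers, the deposited spot intensity was extracted with Feature Extraction 10.10.1.1, with detrending within each array; version 9.1 of it is named in the submitters' processing notes. In the authors' deposited log2 value table, 100% of the 55246 single-spot probes lay within 0.001 of the log2 processed signal less 1 constant for each array; its column medians are -3.72 and -3.62.

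Control spots and outlier spots (155 and 190) were left out, log2 signals averaged per probe and the 75th percentile over 55678 probes subtracted. Probes were matched by accession to RefSeq genes of GRCm38.p6, since RefSeq also lists Stfa3 as an older name of Stfa1; the array design is annotated on an earlier build. The brightest probe stood for a gene. For an at-least fold, the dim side was the probe's own level or, if higher, that array's lowest level marked as well above background. Members and lists were chosen with earlier results of these data known. Named were all probes of the 6 genes, all family and protease genes with a probe, the 2 genes of each marker list with the largest difference on each side of 0, and the 3 genes nearest in difference to Stfa3 and Stfa1; Krt5, Ivl, Krt77, Mpo, Csf3r and the undetected markers, the flanking genes and AGATAA were chosen after their values were seen. Of the listed names BC100530, BC117090, Gm4758 and BC048546 matched no gene here.

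Alternatives were normexp (limma 3.58.1, offset 50, on median spot and background intensity, the mean spot intensity not being used here), other scalings, spot and dim-probe filters, the mean over probes, the deposited table and thresholds of 1.5-fold and 3-fold. Promoters were aligned with Biopython 1.88. The computation was tested on simulated data with known changes.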

Additional observations from a re-analysis of the deposited data

How the results depend on the processing

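No paired analysis was possible because each genotype has 1 array, and for the same reason no replicate could be left out. The 3 lower and 0 higher family genes were unchanged under every alternative that was run other than spike-in scaling, fold thresholds and dim-probe filters included. With spike-in scaling 6 of the 6 were lower (Stfa3 -5.66, Stfa1 -4.68, Cst6 -3.78, Stfa2 -1.97, Cst3 -1.75, Cstb -1.65), because all genes move together. The list medians then were -1.30 for cathepsins and legumain, -2.87 for the further family, -1.71 for neutrophil, -3.46 for basal and -3.62 for suprabasal keratinocyte genes, 0.64 for muscle and -1.17 for fibroblast markers. Of the 11 protease genes 8 were then at least 2-fold lower. Macrophage markers reversed to -0.89, Ctss to -0.86 and Lgmn to -0.84. Normexp gave -1.40 for suprabasal and 2.33 for muscle genes, and quantile normalization 2.38 for muscle and 0.57 for fibroblast genes. Without a filter on dim probes the further family had a median of 0.25, since 15 genes not measured on both arrays then entered. A stricter filter, at 2 times the lowest detected signal, left 9 neutrophil genes with a median of 0.49. It removed Ngp, Ltf and Padi4, with signals of 28.6, 32.9 and 27.2 on the DKO-labelled array. Their differences were -0.52, -0.50 and -0.94. Over all genes the counts of 937 lower and 1091 higher became 12967 and 17 on spike-ins, 1521 and 2122 with no filter, 2335 and 2581 at 1.5-fold, and 315 and 324 at 3-fold. Precision is limited by having 2 arrays.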

Other observations

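The genes whose difference lay nearest to that of Stfa3 among the 14144, over 2 arrays, were Acer1, an epidermal ceramidase, at -3.73, the proton pump subunit gene Atp6v1b1 at -3.67 and the deacetylase gene Aadac at -3.57. Those nearest to Stfa1 were Prom2 at -2.71, Wnt3 at -2.68 and the stefin copy Cstdc5 at -2.67. With 2 arrays this likeness is a single number per gene.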
